A study of Mus musculus with 2 samples.

Results

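Enzymes that make glucose and enzymes that use it were examined in spatial transcriptomics (ST) data of mouse liver. The 9 genes were taken by symbol from the 19465 genes listed in the count matrices. They comprised 5 genes of gluconeogenesis (Pck1, G6pc, Fbp1, Pcx and Sds), 2 genes of glycolysis and its control (Pklr and Pfkfb1), and 2 genes of glycogen metabolism (Pygl and Gys2). All 9 had a mean of at least 10 CPM (a gene's share of its library's counts, in the usual unit of counts per 1e6 counts), so none was lost to a filter on low values. One section came from a mouse without AEG-1 in myeloid cells (AEG-1ΔMAC) and another from a floxed mouse (AEG-1fl/fl), giving 1 library per genotype. AEG-1 is the product of Mtdh, and the knockout rests on LysM-Cre, a recombinase expressed from the Lyz2 locus of macrophages, monocytes and neutrophils. Hepatocytes, which make the 9 enzymes, therefore keep the gene in both mice. The labels give an age of 27 weeks and HF/HSD, a high fat and high sugar diet, starting at 7 weeks for both mice, while the study's text describes this assay in littermates on a control diet (CD). The diet of these mice is thus uncertain, and the labels state neither sex, nor feeding state, nor the hour at which the livers were taken.

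Gluconeogenesis builds glucose from lactate, amino acids and glycerol and lets the liver feed other organs between meals. Glycolysis runs the other way after a meal, when the liver takes up glucose, burns it or turns it into fat, and glycogen is the store that is filled and emptied in between. Along the lobule, gluconeogenesis is a classical task of periportal (PP, zone 1) hepatocytes, which receive blood first, and glycolysis of pericentral (PC, zone 3) hepatocytes around the central vein.

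After filtering, the AEG-1ΔMAC library had 2140 spots and a total of 45453286 unique molecular identifiers (UMIs), and the AEG-1fl/fl library had 2540 spots and 50322850 UMIs. A spot is a small area of tissue that can cover several cells. The libraries shared 1776 spot barcodes, which on this platform mark positions on the capture area and not cells. Hepatocyte markers took 142642 and 205276 CPM in AEG-1ΔMAC and AEG-1fl/fl, a difference carried mainly by Alb, which had 87957 and 141947 CPM. These markers did not move together. Ttr (22464 and 27754 CPM) and Apoa1 (26326 and 31599 CPM) were also lower in AEG-1ΔMAC, while Serpina1c (4957 and 3243 CPM) and Tat (939 and 732 CPM) were higher. Adipocyte markers were close to absent, with 7 and 8 UMIs over 4 genes and Lep at 0 in both libraries. Mtdh had 66.3 and 60.2 CPM (log2 ratio 0.14, 95% interval 0.07 to 0.21), but most RNA of a spot is from hepatocytes, so this does not check the deletion. For the 6933 genes averaging at least 10 CPM, the median log2 ratio, AEG-1ΔMAC over AEG-1fl/fl, was 0.15, with 5th and 95th percentiles of -0.29 and 0.54. Some ratios below are also given relative to that median where stated. All others are not adjusted for it. With 1 library per genotype no test was possible, and the intervals given here hold counting error but no spread between mice. In spots, fewer hepatocytes and less RNA per hepatocyte cannot be told apart.

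The start regions of Pck1 and Pklr are shown because these were the members farthest apart between the genotypes. Pck1 encodes cytosolic phosphoenolpyruvate carboxykinase, the textbook example of a gene switched on by glucagon through cyclic AMP, and Pklr encodes liver and red cell pyruvate kinase, a textbook target of glucose through the carbohydrate response factor ChREBP. Both sequences are from RefSeq on GRCm38.p6, the assembly also called mm10, are on the plus strand, and read 5′ to 3′. Each was cut just before a GENCODE exon, which begins 25 bases ahead of the RefSeq start in Pck1 and 51 bases ahead of it in Pklr. Motif positions are counted from the RefSeq start and not from the printed end. Pck1 spans chr2:173152823-173153047. Pklr has 2 annotated starts, and the stretch before the downstream start, chr3:89136373-89136571, is given, which lies inside the gene, in the first intron of transcripts from the upstream start. Capitals mark the only matches to the 6 motifs searched on both strands.
Pck1: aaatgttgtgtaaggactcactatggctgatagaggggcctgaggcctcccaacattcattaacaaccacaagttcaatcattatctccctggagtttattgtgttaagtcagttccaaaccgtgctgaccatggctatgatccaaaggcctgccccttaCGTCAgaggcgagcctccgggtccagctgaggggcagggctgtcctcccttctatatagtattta
Pklr: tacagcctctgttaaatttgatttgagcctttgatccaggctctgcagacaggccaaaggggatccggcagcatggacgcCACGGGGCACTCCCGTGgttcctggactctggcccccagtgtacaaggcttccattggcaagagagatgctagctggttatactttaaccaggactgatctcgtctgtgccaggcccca
In Pck1 the capitals are the cyclic AMP response half-site TGACG, read on the other strand as CGTCA, at bases -90 to -86 from the RefSeq start. This half-site is common, as 17.8% of 32851 mouse promoters held it in the 250 bases before their start. In Pklr the capitals cover CACGGG and CCCGTG separated by 5 bases, at -170 to -154, a spacing found in 1 of those promoters (0.00304%). That motif was written with this promoter in view, so its rarity says nothing about these data. The other 4 motifs were an E-box CACGTG (6.02% of promoters), a FoxO site GTAAACA (3.17%), an HNF4 site CAAAGTCCA (0.384%) and a C/EBP site TTGCNNAA (9.56%). Of the 9 members, 7 had entries in the promoter table, 12 in all. Further matches were a half-site TGACG in Pygl, an E-box in 1 of 2 starts of Pcx and a C/EBP site in 1 of 4 starts of Pfkfb1. These are matches of letters and not evidence of binding.

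Transcripts of the glucose-making genes did not differ between the genotypes as a block. In AEG-1ΔMAC liver Pck1 was 1.71-fold, G6pc 1.497-fold and Pcx 1.35-fold higher, Sds was 1.21-fold higher, which is close to the typical gene, and Fbp1 was lower. Pck1 (ENSMUSG00000027513; chromosome 2, 173153048 to 173159273, plus strand, protein-coding) turns oxaloacetate into phosphoenolpyruvate, the first step that commits carbon to glucose. It had 2053 CPM (exact Poisson 95% bounds 2040 to 2066) in AEG-1ΔMAC against 1199.6 CPM (1190.1 to 1209) in AEG-1fl/fl, which is a log2 ratio of 0.78 (0.76 to 0.79) or 1.71-fold. Only 2.09% of the genes compared had a higher ratio. G6pc (ENSMUSG00000078650; chromosome 11, 101367561 to 101377903, plus strand), the catalytic subunit of glucose-6-phosphatase that releases free glucose, had 266 CPM (261 to 270.5) and 177 CPM (174 to 181). Its log2 ratio was 0.58 (0.54 to 0.62), a fold that fell just short of the limit of 1.5 used for counting, and 4.34% of genes had a higher one.

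Pcx (ENSMUSG00000024892; chromosome 19, 4510472 to 4621752, plus strand) encodes pyruvate carboxylase, the mitochondrial enzyme that makes oxaloacetate from pyruvate. It had 614 CPM (607 to 621) in AEG-1ΔMAC against 455 CPM (449 to 461) in AEG-1fl/fl, and a log2 ratio of 0.43 (0.41 to 0.46). Sds (ENSMUSG00000029597; chromosome 5, 120476526 to 120483932, plus strand) encodes serine dehydratase, which feeds the carbon of serine and threonine into the pathway. It had 84.1 CPM (81.4 to 86.8) and 69.7 CPM (67.4 to 72.0), and its log2 ratio of 0.27 (0.20 to 0.34) was 0.12 above the median of all genes. Fbp1 (ENSMUSG00000069805; chromosome 13, 62864753 to 62888282, minus strand), fructose-1,6-bisphosphatase, opposes phosphofructokinase. It had 1472 CPM (1461 to 1484) in AEG-1ΔMAC against 1693 CPM (1682 to 1705) in AEG-1fl/fl, the only member with less in AEG-1ΔMAC. The log2 ratio of Fbp1 was -0.20 (-0.22 to -0.19), or -0.35 relative to all genes, and 92.9% of genes had a higher ratio. The median log2 ratio over the 5 gluconeogenic members was 0.43, or 0.28 relative to all genes.

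Pklr and Pfkfb1, the members grouped as glycolytic, were also higher in AEG-1ΔMAC. Pklr (ENSMUSG00000041237; chromosome 3, 89136142 to 89146784, plus strand) catalyses the last step of glycolysis, from phosphoenolpyruvate to pyruvate, and so works against Pcx and Pck1. It had 273 CPM (268 to 278) in AEG-1ΔMAC against 153 CPM (149 to 156) in AEG-1fl/fl, which is a log2 ratio of 0.84 (0.80 to 0.88) or 1.79-fold, and 1.85% of genes had a higher ratio. Pfkfb1 (ENSMUSG00000025271; chromosome X, 150588229 to 150643878, plus strand) makes and breaks fructose-2,6-bisphosphate, the signal that favours glycolysis over gluconeogenesis. Because its product does both, the RNA level of Pfkfb1 does not by itself give a direction of glucose use. It was the least counted member, with 63.0 CPM (60.7 to 65.3) and 46.9 CPM (45.0 to 48.8), and its log2 ratio was 0.42 (0.35 to 0.50). The glycolytic median was 0.63, or 0.48 relative to all genes.

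The glycogen genes were near the typical gene. Pygl (ENSMUSG00000021069; chromosome 12, 70190811 to 70231488, minus strand), liver glycogen phosphorylase, which releases glucose units from glycogen, had 355 CPM (350 to 361) in AEG-1ΔMAC against 299 CPM (294 to 304) in AEG-1fl/fl. Gys2 (ENSMUSG00000030244; chromosome 6, 142422613 to 142473109, minus strand), liver glycogen synthase, which stores them, had 144 CPM (141 to 148) and 129 CPM (126 to 132). Their log2 ratios were 0.25 (0.22 to 0.28) and 0.17 (0.12 to 0.22), only 0.10 and 0.02 above the median of all genes. The pair had a median log2 ratio of 0.21.

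**Figure D1:**
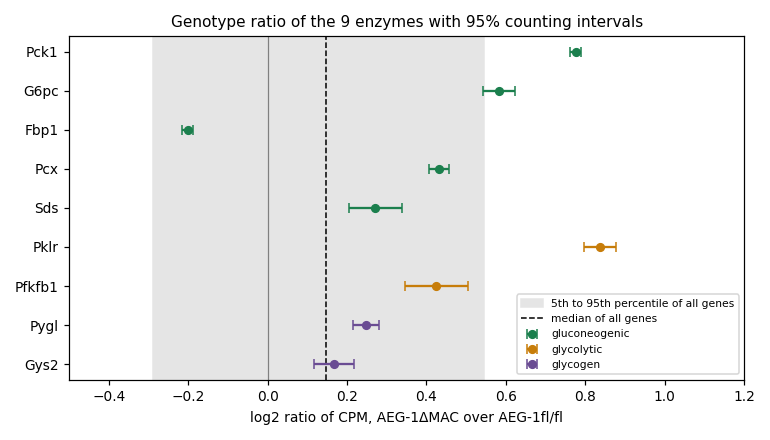
Log2 ratio of CPM (x axis), AEG-1ΔMAC over AEG-1fl/fl, for each of the 9 enzymes (y axis), with bars for the 95% counting interval, the median of all genes as a dashed line and the 5th to 95th percentile of all genes in grey. Pck1 (0.78), Pklr (0.84) and G6pc (0.58) lie to the right of the grey band, and Fbp1 (-0.20) is the only point left of 0.

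By the rule of at least 1.5-fold with the interval on the same side, 2 of the 9 members, Pck1 and Pklr, were higher in AEG-1ΔMAC and 0 were lower. Over all genes compared, 4.3% were higher and 1.79% lower by this rule. Taken against the all-gene median, the same 2 members were higher and 0 lower, beside 2.38% and 2.77% of all genes. No member was 2-fold apart. The libraries also lay differently on a common zone index. The study, which clustered spots on zone markers, reported no significant difference in hepatocyte numbers per zone. When the zone index described below was scaled over both libraries together and cut at common values, the zone 1 part held 20.6% of AEG-1ΔMAC spots against 44.1% of AEG-1fl/fl spots, and the zone 3 part 45.7% and 23.0%. With spots reweighted to the same mix of that index, 4 members were at least 1.5-fold higher, as G6pc was at 0.72 and Sds at 0.72 on the log2 scale, Pck1 was at 1.05 and Pklr at 0.85, while Pfkfb1 was at 0.22 and Fbp1 at -0.05. The common index itself is built from genes that may differ in level between the genotypes. Of these, the study lists Cyp2e1 and Cyp1a2 as higher in AEG-1ΔMAC in some of its spot clusters. The mix of spots and the level of the index genes therefore cannot be told apart.

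Zonation was measured inside each library. Spots were ranked by a zone index, the mean of 3 pericentral markers (Cyp2e1, Cyp1a2 and Oat) minus that of 5 periportal markers (Hal, Gls2, Cyp2f2, Hsd17b13 and Arg1), and divided into 3 equal parts called zone 1, middle and zone 3. Pck1, a periportal marker in the study, was kept out of the index because it is a member here. Landmark genes that did not enter the index were checked, leaving out zone 3 ones that were absent or averaged below 1 CPM. The landmarks used lay on the side of their zone in both libraries, 7 of 7 for zone 1 and 6 of 6 for zone 3. Their median log2 ratios, zone 3 over zone 1, were -1.13 and 2.29 in AEG-1ΔMAC against -0.95 and 2.39 in AEG-1fl/fl. Over all genes these medians were 0.09 and 0.08.

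Of the glucose-making genes, Sds and Pck1 were at least 1.5-fold higher in the zone 1 part than in the zone 3 part of both livers, as were 0.968% of 6925 genes. G6pc and Fbp1 leaned the same way with a smaller ratio, past 1.5-fold in 1 liver each, and Pcx was not periportal. Sds was the most strongly zoned member. In AEG-1ΔMAC it had 145 CPM in the zone 1 part, 72.9 in the middle and 35.2 in the zone 3 part, and in AEG-1fl/fl it had 106, 68.5 and 34.4 CPM. Its zone log2 ratio was -2.04 (-2.18 to -1.90) in AEG-1ΔMAC against -1.63 (-1.77 to -1.49) in AEG-1fl/fl, so the zone 1 part held 4.11 and 3.10 times the level of the zone 3 part. Both livers had nearly the same low pericentral level of Sds, and the periportal levels were farther apart. Pck1 had 2825, 1964 and 1378 CPM from zone 1 to zone 3 in AEG-1ΔMAC, and 1565, 1215 and 818 CPM in AEG-1fl/fl. The zone log2 ratios of Pck1 were -1.04 (-1.06 to -1.01) and -0.94 (-0.97 to -0.91). Even the zone 3 part of AEG-1ΔMAC thus held more Pck1 than the middle part of AEG-1fl/fl.

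G6pc had 314, 271 and 212 CPM along the same 3 parts in AEG-1ΔMAC, and 215, 177 and 141 CPM in AEG-1fl/fl. Its zone log2 ratios were -0.57 (-0.63 to -0.50) and -0.60 (-0.68 to -0.53), which put it on either side of the 1.5-fold limit. Fbp1 had 1804, 1435 and 1181 CPM in AEG-1ΔMAC against 1949, 1680.3 and 1452 CPM in AEG-1fl/fl. It was zoned by -0.61 (-0.64 to -0.58) in AEG-1ΔMAC and, less steeply, by -0.42 (-0.45 to -0.40) in AEG-1fl/fl. Pcx, whose product acts in mitochondria of all hepatocytes, was close to flat. It had 615, 608 and 618 CPM in AEG-1ΔMAC (zone log2 ratio 0.01, interval -0.04 to 0.05) against 452, 426 and 489.99 CPM in AEG-1fl/fl (0.12, 0.07 to 0.16). The median over the 5 gluconeogenic members was -0.61 in AEG-1ΔMAC against -0.60 in AEG-1fl/fl.

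**Figure D2:**
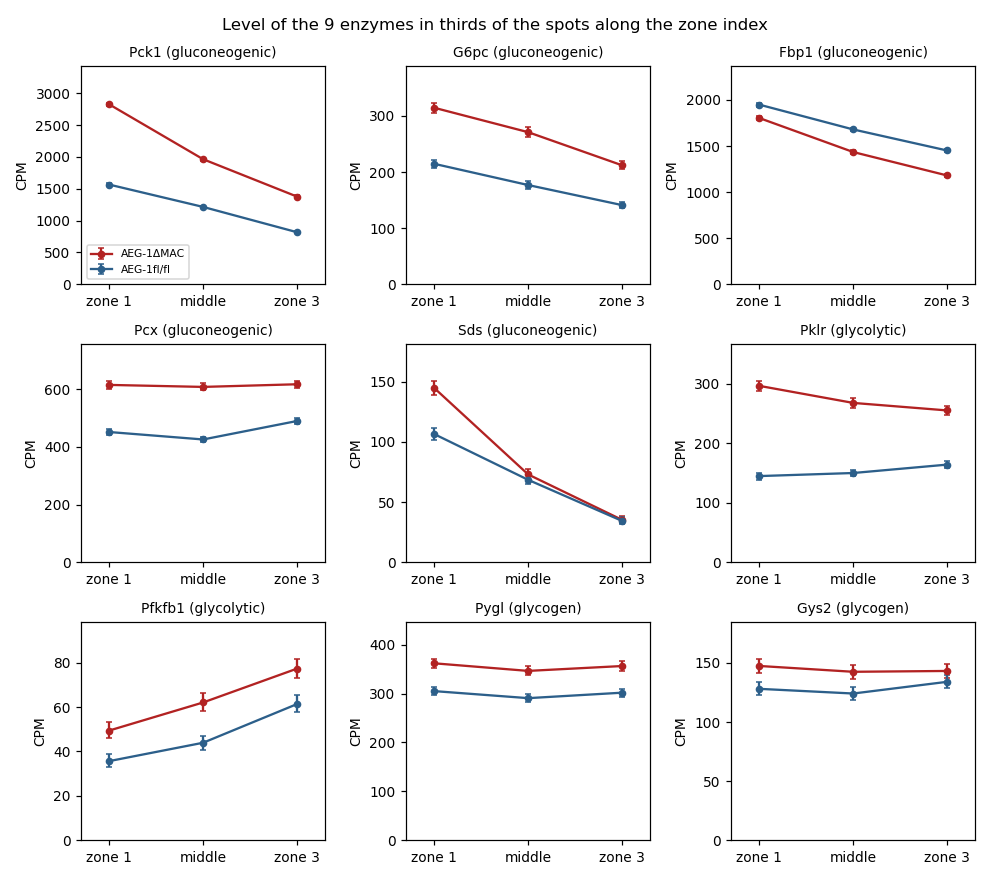
CPM (y axis, from 0) of each of the 9 enzymes in the zone 1, middle and zone 3 parts (x axis) of AEG-1ΔMAC (red) and AEG-1fl/fl (blue) spots, with 95% Poisson intervals as bars. Sds, Pck1, G6pc and Fbp1 fall toward zone 3 in both libraries, Pfkfb1 climbs, and Pklr falls in AEG-1ΔMAC (296 to 255 CPM) but climbs in AEG-1fl/fl (145 to 164 CPM).

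The glycolytic members differed from each other. Pfkfb1 was pericentral in both livers, with 49.4, 62.1 and 77.3 CPM from zone 1 to zone 3 in AEG-1ΔMAC against 35.7, 43.9 and 61.3 CPM in AEG-1fl/fl. Its zone log2 ratio was 0.65 (0.51 to 0.78) in AEG-1ΔMAC against 0.78 (0.63 to 0.93) in AEG-1fl/fl. Pklr was weakly zoned, and in opposite directions. In AEG-1ΔMAC it had 296, 268 and 255 CPM, a zone log2 ratio of -0.22 (-0.28 to -0.15), and in AEG-1fl/fl it had 145, 149.98 and 164 CPM, a zone log2 ratio of 0.18 (0.10 to 0.26). The glycogen genes had no clear zone. Pygl had 362, 347 and 357 CPM in AEG-1ΔMAC against 305, 291 and 302 CPM in AEG-1fl/fl, and its zone log2 ratio was -0.02 in both, with intervals of -0.08 to 0.03 and -0.07 to 0.04. Gys2 had 147, 143 and 143 CPM in AEG-1ΔMAC against 128, 124 and 134 CPM in AEG-1fl/fl, with zone log2 ratios of -0.04 (-0.13 to 0.04) and 0.07 (-0.02 to 0.15).

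By the 1.5-fold rule, 3 members were zoned toward zone 1 in AEG-1ΔMAC (Pck1, Fbp1 and Sds), beside 1.96% of 6925 genes, and 1 (Pfkfb1) toward zone 3, beside 2.92%. In AEG-1fl/fl there were also 3 toward zone 1 (Pck1, G6pc and Sds), beside 1.75%, and 1 (Pfkfb1) toward zone 3, beside 2.79%. Intervals on opposite sides of 0 in the 2 libraries were found for 1 member, Pklr, and for 0.606% of all genes. G6pc and Fbp1 were past the limit in 1 library each. G6pc lay close to it in both, and among spots matched on UMIs G6pc was past it in AEG-1ΔMAC (-0.59) and short of it in AEG-1fl/fl (-0.57).

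**Figure D3:**
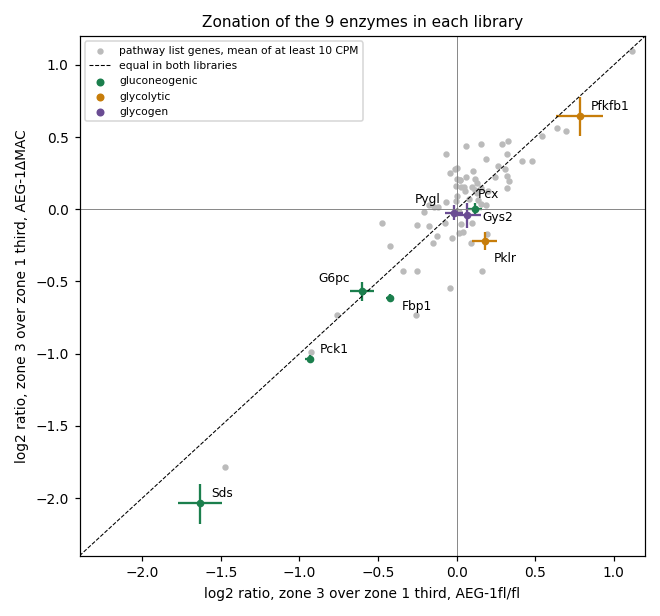
Zone log2 ratio, zone 3 over zone 1, in AEG-1fl/fl (x axis) and AEG-1ΔMAC (y axis) for the 9 enzymes, coloured by role with 95% counting intervals, and for the other genes of the pathway lists in grey. Sds (-1.63 and -2.04) and Fbp1 (-0.42 and -0.61) lie below the dashed line of equal values, and Pklr (0.18 and -0.22) lies in the lower right quadrant.

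Finer bins showed the same zonation. Over 10 equal bins from the zone 1 end to the zone 3 end, Sds in AEG-1ΔMAC was highest in bin 1 with 186 CPM and lowest in bin 10 with 23.2 CPM, an 8.02-fold range, against 128 and 28.7 CPM and a 4.45-fold range in AEG-1fl/fl. Pck1 spanned 3447 to 1108 CPM (3.11-fold) and 1794 to 637 CPM (2.82-fold), also from bin 1 to bin 10. Both genes thus had their peak next to the portal end in both livers. Pfkfb1 went from 47.4 CPM in bin 1 to 92.3 CPM in bin 10 in AEG-1ΔMAC, and from 31.7 CPM in bin 2 to 75.6 CPM in bin 10 in AEG-1fl/fl. Pklr in AEG-1ΔMAC stood at 335 CPM in bin 1, had its lowest level of 249 CPM in bin 8 and ended at 254 CPM. In AEG-1fl/fl it had its lowest level of 144 CPM in bin 4 and its highest of 173 CPM in bin 10. Bin 1 alone thus held much of the periportal excess of Pklr in AEG-1ΔMAC, since bin 2 was at 291 CPM.

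**Figure D4:**
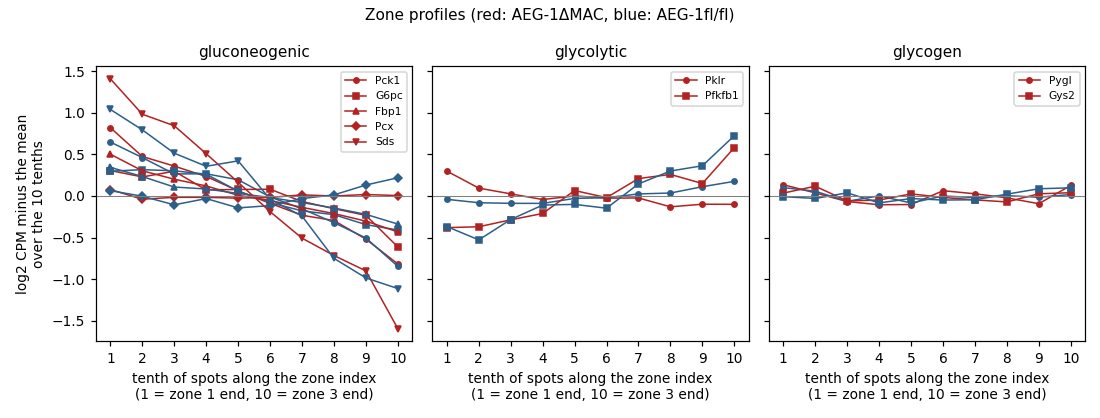
Log2 CPM of each enzyme minus its mean over 10 equal bins of spots (y axis) against the bin, from 1 at the zone 1 end to 10 at the zone 3 end (x axis), for AEG-1ΔMAC (red) and AEG-1fl/fl (blue), in panels by role with a marker shape for each gene. Sds has the steepest profile, Pcx, Pygl and Gys2 stay near 0, and the red and blue lines of Pklr cross.

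Whether the genotype ratio was the same along the lobule was examined next. The ratio changed most from the zone 1 to the zone 3 part for Sds, Pklr and Fbp1. For Pck1 and Pcx the change was smaller, and their high counts make the intervals narrow. Pklr had a genotype log2 ratio of 1.03 (0.96 to 1.11) in the zone 1 part, 0.84 (0.77 to 0.91) in the middle and 0.64 (0.57 to 0.71) in the zone 3 part. Sds was at 0.44 (0.35 to 0.53), 0.09 (-0.03 to 0.21) and 0.04 (-0.14 to 0.21), beside all-gene medians of 0.13, 0.16 and 0.15 in the same parts. Its ratio was thus above the typical gene in the zone 1 part only. In the other 2 parts it was below the all-gene median, with intervals that included both 0 and that median. Fbp1 was at -0.11 (-0.14 to -0.09), -0.23 (-0.25 to -0.20) and -0.30 (-0.33 to -0.27). The gap in Fbp1 was therefore narrowest at the portal end. Pck1 was at 0.85, 0.69 and 0.75, G6pc at 0.55, 0.62 and 0.59, and Pcx at 0.45, 0.51 and 0.33. Pygl, at 0.25, 0.25 and 0.24, had the most even ratio of the 9.

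Put as the difference between the libraries' zone log2 ratios, AEG-1ΔMAC minus AEG-1fl/fl, Sds was at -0.41 (-0.60 to -0.21) and Pklr at -0.40 (-0.50 to -0.30), with Fbp1 at -0.19 (-0.22 to -0.15). Pcx (-0.11, -0.17 to -0.05) and Pck1 (-0.10, -0.14 to -0.06) were closer to 0, with intervals that left it out. Of 6925 genes, 2.61% had a lower difference than Sds, 2.77% than Pklr, 13.3% than Fbp1, 22.8% than Pcx and 24.8% than Pck1. The differences of G6pc (0.04, -0.06 to 0.14), Pygl (-0.01, -0.09 to 0.07), Pfkfb1 (-0.14, -0.34 to 0.06) and Gys2 (-0.11, -0.23 to 0.01) had intervals that included 0. These intervals hold counting error only, and whether the zonation of any member differs between the genotypes was not tested. Cholangiocyte markers, which mark the portal tract, had 164 CPM in the zone 1 part of AEG-1ΔMAC against 129.6 CPM in that of AEG-1fl/fl, but 32.3 and 40.7 CPM in the zone 3 parts. Over whole libraries these markers did not move together, as Spp1 had 67.1 and 56.9 CPM and Sox9 13.8 and 25.9 CPM. Marker level and position thus cannot be told apart in the sum. The parts of the 2 livers need not cover the same stretch of the lobule, and the share of this in the differences of the members was not tested.

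The balance between both arms was expressed as the mean log2 CPM of the 5 gluconeogenic members minus that of the 2 glycolytic members. Its absolute value depends on how well each probe works, so only its differences were read. Pfkfb1 was counted as glycolytic here, although its product both makes and breaks the signal that favours glycolysis. It dropped along the lobule in both livers, by 1.06 on the log2 scale from the zone 1 to the zone 3 part of AEG-1ΔMAC (zone 3 minus zone 1 -1.06, interval -1.14 to -0.98) and by 1.18 in AEG-1fl/fl (-1.18, -1.27 to -1.09). Between the outermost of the 10 bins the difference was -1.59 and -1.63. The members did not share evenly in this drop. In AEG-1ΔMAC the zone log2 ratio was -2.04 for Sds and 0.65 for Pfkfb1 but 0.01 for Pcx, and that of Pklr, -0.22, went against the drop. Between parts of equal rank the balance was lower in AEG-1ΔMAC, with a difference from AEG-1fl/fl of -0.32 (-0.41 to -0.23) in the zone 1 part, -0.33 (-0.41 to -0.25) in the middle and -0.20 (-0.28 to -0.12) in the zone 3 part. In the zone 1 part Pklr contributed -0.52, Pfkfb1 -0.24 and Fbp1 -0.02 to this difference, while Pck1 contributed 0.17, G6pc 0.11, Pcx 0.09 and Sds 0.09. The lower balance was not seen at every place of a common index. With the 3 parts cut at common values it was -0.17 (-0.26 to -0.07) in the zone 1 part, 0.09 (0.01 to 0.17) in the middle and 0.01 (-0.07 to 0.10) in the zone 3 part. Over whole libraries it was -0.26 (-0.31 to -0.21), and 0.03 (-0.01 to 0.08) with the same mix of index bins. Ratios of genotype within a part carry the same scaling in both arms, so the choice of library scaling does not enter the balance.

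**Figure D5:**
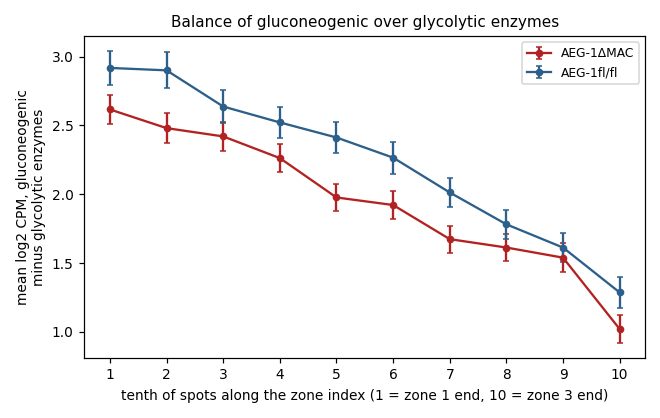
Mean log2 CPM of the 5 gluconeogenic enzymes minus that of the 2 glycolytic enzymes (y axis, not from 0) in 10 equal bins of spots from the zone 1 end to the zone 3 end (x axis), with 95% counting intervals as bars. AEG-1ΔMAC (red) runs from 2.62 to 1.02 and AEG-1fl/fl (blue) from 2.92 to 1.29, and the red points lie below the blue points in every bin of each library's own ranking.

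Spots of a library also varied in these transcripts. The coefficient of variation across spots beyond counting error was 67.6% for Sds in AEG-1ΔMAC against 52.1% in AEG-1fl/fl, and 35.6% and 32.9% for Pck1. It was lowest for Gys2 (9.60% and 6.92%) and Pcx (8.99% and 10.9%). Inside the 10 bins of the zone index it was down to 27.3% and 25.9% for Sds and to 14.8% and 17.2% for Pck1, so position along the index went with much of the spread of these 2 genes. For Pygl it changed little, from 14.5% to 13.0% in AEG-1ΔMAC and from 11.8% to 11.4% in AEG-1fl/fl. Across spots, Pck1 correlated with Fbp1 at r = 0.68 in AEG-1ΔMAC (2140 spots) against 0.57 in AEG-1fl/fl (2540 spots), and at 0.28 and 0.29 inside bins. Pck1 and Sds were at 0.57 and 0.42, and at 0.14 and 0.16 inside bins. Spots share a library, depth and neighbourhood, and these correlations are descriptions. Counts of single spots were small, with a median of 39 and 21 UMIs for Pck1 but 1 for Sds and Pfkfb1 in both libraries.

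Genes with the most similar profile over the 10 bins were sought among 2164 genes that averaged at least 50 CPM. The closest to Pck1 were Hpx, which encodes the heme carrier hemopexin (r = 0.999 in both libraries), and the urea cycle gene Asl (0.991 in AEG-1ΔMAC against 0.997 in AEG-1fl/fl). Hpx was also among the closest to Fbp1 (0.996 and 0.986), beside Gstp1 (0.997 and 0.987). For Sds they were complement C3 (0.991 and 0.991) and Rida (0.994 and 0.990), and for G6pc Mup3 (0.983 and 0.966), one of many near-identical genes and therefore uncertain, and Hsd17b6 (0.962 and 0.977). The profile of Pklr was closest to those of Thrsp (0.889 and 0.875) and Fads1 (0.826 and 0.911), which both act in fatty acid synthesis, and the profile of Pfkfb1 to those of Aldh1a1 (0.971 and 0.970) and Car3 (0.969 and 0.969). For Pcx, Pygl and Gys2, whose profiles were flat, the best matches had r of 0.82 or less, and they were Hs6st1 and Asb13, Atf5 and Nr2f6, and Nectin2 and Slc35b1. All these values rest on 10 bins of the same spots and carry no p-value.

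The other genes of glucose metabolism were taken from lists made by function. Counts below cover list genes that averaged at least 10 CPM, and list medians those with at least 1 CPM. Among 17 genes of other gluconeogenic steps and substrate entry, 2 were at least 1.5-fold higher in AEG-1ΔMAC and 1 was lower, beside 4.3% and 1.79% of all genes. The median log2 ratio of the list was 0.17, only 0.03 above that of all genes. Slc37a4, the carrier that brings glucose-6-phosphate to the phosphatase encoded by G6pc, had 96.4 CPM in AEG-1ΔMAC against 57.3 CPM in AEG-1fl/fl, which is a log2 ratio of 0.75 (0.68 to 0.82). Aqp9, the glycerol channel, had 362 and 241 CPM, with a log2 ratio of 0.59 (0.55 to 0.62). It was pericentral, with zone log2 ratios of 1.10 and 1.11, unlike the gluconeogenic members. Sdsl, a relative of Sds, went the other way, with 17.7 and 27.9 CPM and its log2 ratio at -0.66 (-0.78 to -0.53), although its zonation was like that of Sds (-1.79 and -1.48). Pck2, the mitochondrial counterpart of Pck1, had 8.23 and 12.0 CPM, with a log2 ratio of -0.54 (-0.73 to -0.35). Among 4 genes of the reversible steps that both directions share, 0 were 1.5-fold apart.

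Of 14 genes of glucose entry, glycolysis and pyruvate use, 1 was higher and 0 lower (4.3% and 1.79% of all genes), with a list median of 0.13. The higher one was Slc2a2, the glucose transporter of hepatocytes that carries glucose both ways, with 202 CPM in AEG-1ΔMAC against 110.1 CPM in AEG-1fl/fl, which is a log2 ratio of 0.88 (0.83 to 0.92). The list's widest ratios were below the 10 CPM limit and are named after their values were seen. Pfkfb3, a relative of Pfkfb1, had 312 UMIs against 71 (log2 ratio 2.28, 1.91 to 2.68), and Pdk4, a kinase that shuts off pyruvate dehydrogenase, had 168 against 531 (-1.51, -1.77 to -1.26). Of 11 further glycogen genes, 1 was higher and 1 lower by the same rule. Ugp2, which makes the UDP-glucose used by Gys2, had 270.1 and 176 CPM, with a log2 ratio of 0.62 (0.58 to 0.65), and Ppp1r3c, which targets a phosphatase to glycogen, had 43.8 and 73.3 CPM, with a log2 ratio of -0.74 (-0.82 to -0.66).

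Among 20 hormonal and transcriptional regulators, 5 were higher and 0 lower (4.3% and 1.79% of all genes), with a list median of 0.27 against 0.15 for all genes. They were Onecut1 (125 CPM in AEG-1ΔMAC against 10.3 in AEG-1fl/fl, log2 ratio 3.60), Cebpb (287 and 123 CPM, 1.22), Foxa2 (34.4 and 15.1 CPM, 1.19), Txnip (92.8 and 51.7 CPM, 0.84) and Klf15 (158 and 104 CPM, 0.61). Txnip, a thioredoxin-binding protein, is like Pklr a textbook target of ChREBP, and Cebpb and Klf15 are known regulators of gluconeogenic genes. Ppargc1a, a coactivator of gluconeogenesis, had 306 UMIs (6.73 CPM) against 271 UMIs (5.39 CPM), with a log2 ratio of 0.32 (0.08 to 0.56). Clock genes, several of which swing over the day together with glucose metabolism, were far apart. Of 7 that averaged at least 10 CPM, 4 were higher and 2 were lower, beside 4.3% and 1.79% of all genes. The higher ones were Dbp (2.76 on the log2 scale), Nr1d1 (1.42), Nr1d2 (1.37) and Tef (1.33), and the lower ones Arntl (-0.71) and Cry1 (-0.60). Among the 11 that averaged at least 1 CPM, 7 were higher and 3 lower. With the hour of collection and feeding state not in the labels and 1 mouse per genotype, genotype, hour and individual cannot be told apart for Pck1, G6pc, Pklr or any other member.

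Markers of other cell types moved with the genotype as follows, and their part in the ratios of the members was not tested. All 5 Kupffer cell markers were detected and summed to 574 CPM in AEG-1ΔMAC against 641 CPM in AEG-1fl/fl. They did not move together, as Fabp5 (33.3 and 119 CPM) and Marco (13.9 and 36.1 CPM) were lower in AEG-1ΔMAC while Cd5l (278 and 241 CPM) and Clec4f (198 and 191 CPM) were not. Stellate cell (392 and 393 CPM), cholangiocyte (87.3 and 88.2 CPM) and endothelial (314 and 322 CPM) sums were close. Stellate cell and cholangiocyte markers did not move together. Colec11 (51.8 and 72.1 CPM) and Sox9 (13.8 and 25.9 CPM) were lower in AEG-1ΔMAC, while Ecm1 (204 and 187 CPM) and Spp1 (67.1 and 56.9 CPM) were higher. B cell markers had 29.0 and 47.4 CPM, T cell markers 14.1 and 7.15 CPM and neutrophil markers 4.20 and 8.98 CPM. Of the neutrophil markers, S100a8 (0.880 and 5.25 CPM) and Csf3r (2.16 and 2.84 CPM) were lower, while Cxcr2 (0.220 and 0.179 CPM) and Mmp9 (0.946 and 0.715 CPM) were not. No marker of these types was at 0. The zonation of the members was measured again without the 10% of spots richest in nonparenchymal markers. Pklr remained at opposite signs there, with its difference between the libraries at -0.38 (-0.49 to -0.28), and Sds had a difference of -0.42 (-0.63 to -0.22).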

How the data were processed

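Sections of formalin-fixed liver in paraffin, 1 per genotype, were assayed by the authors with the probe-based 10x Visium kit for mouse, both on the same slide per the labels. The authors ran Space Ranger 2.0.1 with the mm10 reference and probe set, and the deposited matrices hold raw counts of UMIs per gene and spot under tissue, not normalised. The submitters' processing notes also name Seurat 4.3.0. Probe efficiency differs between genes, so levels were compared within a gene only. Spot positions were not used here. Duplicate copies of a molecule are collapsed by UMIs, and intervals cover counting error only.

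By the limits given in the study, spots with over 50000 UMIs, under 100 genes or over 7000 genes were removed (9 of 2149 and 3 of 2543 spots). The study gives 2149 and 2543 as the numbers of spots left after its filter, so the spots used here are not exactly its set. Median depth was 20929.5 UMIs per spot in AEG-1ΔMAC against 18285 in AEG-1fl/fl. UMIs were summed per library, or per part or bin of the zone index, and divided by the total to give CPM, with exact Poisson 95% intervals. Genotype and zone ratios have exact conditional binomial (Clopper-Pearson) 95% intervals, and a difference of 2 log2 ratios a Wald interval on the 4 counts. At 10 CPM the libraries hold 454.5 and 503.2 UMIs. The zone index is the mean of log-normalised values scaled within a library. A gene was counted when at least 1.5-fold apart with the interval on the same side. Groups came from the genotype labels. With 1 library each, no p-value was computed.

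The members, gene lists and comparisons were chosen with earlier results of these data known. Named genes were all 9 members, list genes at least 1.5-fold apart that averaged at least 10 CPM (at most 6 per list), Pck2, Slc2a2, Slc37a4 and Ppargc1a in any case, and for each member the 2 genes with the highest Pearson correlation over the 10 bins, by the lower of both libraries. One further gene fixed by that rule is not reported here. List medians took genes averaging at least 1 CPM. Coordinates came from GENCODE M21 on GRCm38, the assembly of mm10. Alternatives covered scaling (TMM of edgeR 4.0.16 and size factors of DESeq2 1.42.0 on the 2 library sums, used as factors only), choice of spots, index genes and cuts. The scripts were tested on simulated data. Python 3.11.15, numpy 2.4.6, scipy 1.17.1, pandas 2.3.3, matplotlib 3.10.9 and R 4.3.3 were used.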

Additional observations from a re-analysis of the deposited data

Results flagged for a closer look

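The zone log2 ratio of Pklr had opposite signs in the 2 livers, at -0.22 in AEG-1ΔMAC against 0.18 in AEG-1fl/fl, each with its counting interval away from 0. With 1 library per genotype the difference between the livers was not tested. Under the 7 alternatives of index and spots the value ran from -0.40 to -0.20 in AEG-1ΔMAC and from 0.15 to 0.22 in AEG-1fl/fl.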

How the results depend on the processing

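No paired analysis was possible because each genotype had 1 library and the labels give no replicate numbers. For the same reason leaving out a library was not possible. All alternatives but 1 set were planned, each changed alone, and no member whose interval lay away from 0 changed sign under any of them. The medians of the gluconeogenic, glycolytic and glycogen members, 0.43, 0.63 and 0.21, were 0.31, 0.51 and 0.083 after TMM scaling, 0.30, 0.50 and 0.077 after median-of-ratios scaling, and 0.29, 0.49 and 0.065 when the 50 most abundant genes were left out of the total. The median of all genes, 0.15, was 0.022, 0.016 and 0.0039 under these settings, in the same order. Each setting applies 1 factor to all genes, so values relative to the median of all genes do not move. With the same mix of zone index bins, the gluconeogenic median was 0.72 and the glycolytic median 0.54, and 4 members rather than 2 were at least 1.5-fold higher, while at 2-fold there were 0. As the mean over spots of spot CPM, G6pc just passed the limit (0.59), which made 3. With the outermost 10% of spots at each end in place of the 3 parts, the zone median of the gluconeogenic members was -0.93 in AEG-1ΔMAC against -0.71 in AEG-1fl/fl, that of the glycolytic members in AEG-1fl/fl was 0.65, the zone difference of the balance was -1.59 and -1.63, and the genotype median of the gluconeogenic members was 0.54 at the zone 1 end and 0.22 at the zone 3 end. With common index cuts the genotype median in the zone 1 part was 0.58, and the difference of the balance between the libraries, -0.32, -0.33 and -0.20 from zone 1 to zone 3, was -0.17, 0.090 and 0.011, so its sign turned in the middle and zone 3 parts. Over whole libraries that difference, added after the data were seen, was -0.26 and turned to 0.033 with the same mix of index bins. Counting Pygl as glucose-making and Gys2 as glucose-using gave zone differences of the balance of -0.84 and -0.93. The difference between the livers in the zone log2 ratio of G6pc, 0.04, ranged from -0.21 to 0.15, and that of Sds from -0.85 to -0.35. For G6pc the interval left out 0 on opposite sides, with the outermost 10% of spots (-0.21, -0.41 to -0.02) and with common index cuts (0.15, 0.04 to 0.26). With those cuts the difference of Pck1 was -0.040 (-0.082 to 0.003), so its interval then included 0, while that of Gys2 (-0.20, -0.33 to -0.07) left it out. Apart from the settings that are fixed by construction, the cause was not tested. Depth limits Pfkfb1 and Sds most, and a spread between mice could not be estimated.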
